A study of Mus musculus with 16 samples.

Results

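FGF2 was compared with the absence of any growth factor (-GFs) in co-cultures of mouse embryonic stem (ES) cells and PA6 stromal cells at day 7. The members were all genes whose probe was detected (detection p under 0.05) on every array of either group, which gave 13019 of the 14829 genes tested, from 18080 of 45281 probes. Of these members 11358 were detected on all 5 arrays, 679 passed only through the FGF2 arrays and 982 only through the -GFs arrays, so that the last 2 sets held genes that had to lie higher in the group they passed through.

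The study grew ES cells, a line carrying EGFP in the tau locus, on a monolayer of PA6, a line of mouse bone marrow stroma, and in parallel grew PA6 cells alone, all in serum-free medium. Cultures received FGF2 at 20 ng/ml or no growth factor, and by the culture methods of the study the factor was added at the start and withdrawn after 3 of the 7 days. Total RNA of the culture was hybridised to Illumina MouseWG-6 v2.0 arrays, one array per culture, so each value sums the ES-derived and the stromal cells. The comparison rested on 3 FGF2 and 2 -GFs arrays of co-cultures, and 9 arrays of PA6 alone (3 each of -GFs, FGF2 and BMP4) and 2 of co-cultures with BMP4 at 10 ng/ml were set beside it. That BMP4 dose is the one in the sample labels, and the culture methods of the study state a lower one.

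FGF2 binds receptor tyrosine kinases of the FGFR family and signals largely through the RAS and ERK cascade, whose output includes its own feedback inhibitors. In early mammalian development this signal takes ES cells out of the naive state, and later it takes part in mesoderm, endothelial and posterior neural fates. ES cells kept on PA6 without serum are known for turning into neural cells.

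Between 40.5% and 47.0% of probes were detected on the 5 arrays, and within a group the arrays had correlations of 0.973 to 0.980 over genes, which are not independent replicates. The markers checked the culture labels in part. Of 8 neural markers 5 were members and all 5 were detected on all 5 arrays, while SOX1, PAX6 and TUBB3 failed the detection filter and were not tested. None of the 5 was called, with changes of 0.45 for SOX2, -0.03 for STMN2, -0.12 for MTAP2 (Map2), -0.19 for DCX and -0.79 for SOX11 (limma, adjusted p = 0.225, 0.971, 0.836, 0.783 and 0.0589). Of the PA6 stroma markers 7 of 8 were members and 0 were called. Of 8 endothelial markers CDH5, KDR, TIE1 and ICAM2 were not tested for lack of detection, and PECAM1 and TEK were called higher, although PECAM1 is also made by undifferentiated ES cells. All 6 markers of undifferentiated ES cells were called higher with FGF2, with a median change of 2.55 on the log2 scale. Their part in the other changes described here was not tested. In RNA of mixed cells, fewer cells of a type and less RNA per cell cannot be told apart.

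To be called, a gene needed a limma p, adjusted by Benjamini-Hochberg over all 14829 genes, of under 0.1 and a log2 change of more than 1 in either direction. Of all genes 7.42% were called, 5.07% higher and 2.35% lower with FGF2, and of the members 744 were called higher and 348 lower. The 2 groups did not overlap, with FGF2 above, in 17.6% of all genes and, with FGF2 below, in 22.1%. All 1092 called members were without overlap. The separation of the arrays stated below for called genes therefore adds no evidence to their calls. By size, 276 of the higher members and 20 of the lower ones exceeded 4-fold. Of the higher members 168 were undetected on both -GFs arrays, and of the lower ones 33 were undetected on all FGF2 arrays. Among members detected on all 5 arrays, 452 were called higher (3.98%) and 240 lower (2.11%). The number called depended on the 2 -GFs arrays. Of the 1092 called members 359 were still called without -GFs replicate 1 and 552 without -GFs replicate 2. In all, 285 (243 higher, 42 lower) kept the call whichever of the 7 co-culture arrays was left out. Where a call below was lost in such a run the arrays are named, and the value in brackets after a gene is its highest adjusted p over the 7 runs.

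The changes of the members of 19 gene lists are plotted side by side, with the median of the germline list farthest to the right and that of the neural progenitor list farthest to the left. The lists were chosen with earlier results of these data known, so the shares called describe them and test nothing. Of the 13019 members 744 were called higher and 348 lower. For each list the counts below are read against 5.07% higher and 2.35% lower of all genes, and its median against a median of -0.06 over all genes tested. Scaling the arrays by their medians in place of quantile normalization lowered that median to -0.21. It also turned the medians below 0 for the lists of FGF receptors, mesenchyme, basement membrane, stroma, glycolysis, serine metabolism, oxidative phosphorylation, mitosis, p53 and ribosome biogenesis, all at 0.16 or less before, so no direction is given for these.

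**Figure D1:**
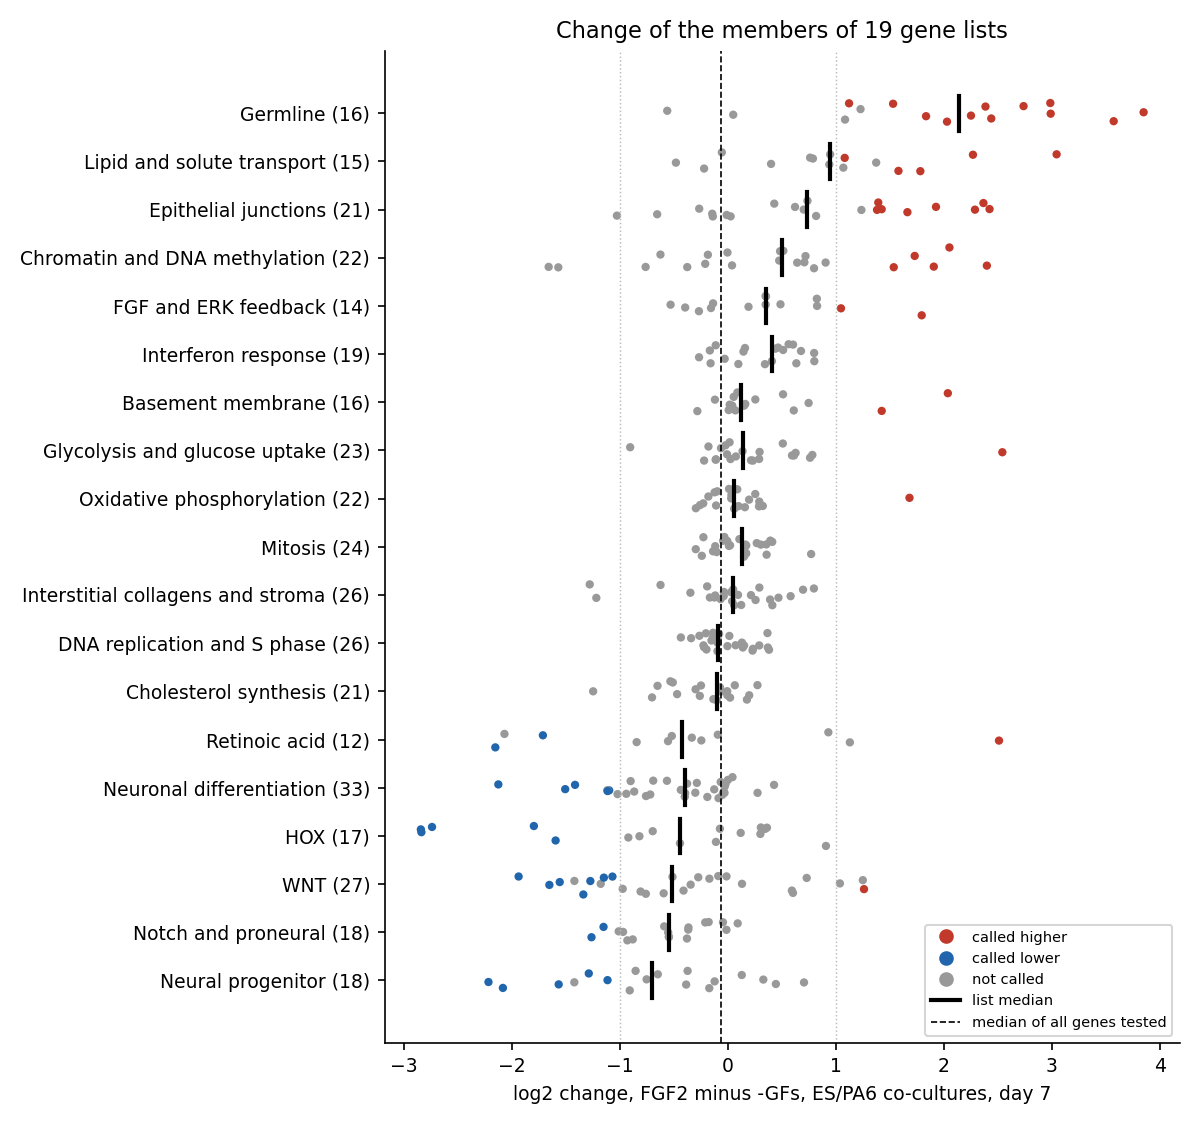
Log2 change with FGF2 (FGF2 minus -GFs, horizontal axis) of each member of 19 gene lists (vertical axis, number of members in brackets) in ES/PA6 co-cultures at day 7. Red points were called higher, blue points called lower and grey points not called; black bars are list medians and the dashed line the median of all genes tested. The germline median was 2.14 and the neural progenitor median -0.70.

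The germline list, genes used by primordial germ cells and in meiosis and for silencing transposons, held 16 members, of which 12 were called higher and 0 lower, with a median change of 2.14. Of these members 8 had passed through the FGF2 arrays alone and had to lie higher there. Among the 8 detected on all 5 arrays, 5 were called higher, against 3.98% of all members so detected. No probe of 11 of the 16 members was detected on any of the 9 PA6 arrays. A RefSeq promoter was matched for 9 of the 12 called members. The motif CACGTG, which reads the same on both strands, stood at least once in the 250 bases before the start of 4 of these 9, and in 8.32% of the 9224 promoters of genes tested that could be matched. It also stood before 2 of the 3 members not called that had a promoter (Dazap1 and Stk31). The 4 called ones are shown because they carry the motif, which is in capitals, written 5′ to 3′ on the strand of the gene (RefSeq, GRCm38.p6).
Fkbp6, chr5:135350045-135350294 (minus strand): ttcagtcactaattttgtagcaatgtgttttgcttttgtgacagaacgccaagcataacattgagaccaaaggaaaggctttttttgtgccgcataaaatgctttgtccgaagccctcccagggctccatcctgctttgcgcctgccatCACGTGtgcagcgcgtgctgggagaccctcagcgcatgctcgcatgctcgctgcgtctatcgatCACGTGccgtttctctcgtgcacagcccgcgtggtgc
Taf7l, chrX:134476491-134476740 (minus strand): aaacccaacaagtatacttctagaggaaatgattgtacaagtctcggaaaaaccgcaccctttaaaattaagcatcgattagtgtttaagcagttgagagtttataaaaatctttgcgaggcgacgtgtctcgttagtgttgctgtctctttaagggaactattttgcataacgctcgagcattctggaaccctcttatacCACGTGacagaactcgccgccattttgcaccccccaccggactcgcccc
Mov10l1, chr15:88982744-88982993 (plus strand): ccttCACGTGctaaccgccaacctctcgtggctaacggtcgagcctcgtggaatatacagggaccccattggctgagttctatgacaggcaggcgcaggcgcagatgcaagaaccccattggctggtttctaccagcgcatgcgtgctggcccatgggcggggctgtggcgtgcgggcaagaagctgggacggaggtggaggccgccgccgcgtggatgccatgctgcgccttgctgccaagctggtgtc
Ddx4, chr13:112652311-112652560 (minus strand): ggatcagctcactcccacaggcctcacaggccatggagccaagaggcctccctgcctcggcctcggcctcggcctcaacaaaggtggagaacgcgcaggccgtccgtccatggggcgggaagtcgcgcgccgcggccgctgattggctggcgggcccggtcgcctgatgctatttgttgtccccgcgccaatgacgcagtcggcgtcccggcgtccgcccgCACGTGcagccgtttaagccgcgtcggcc
The match is one of letters, and binding there was not measured.

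DAZL, an RNA-binding protein of germ cells, had log2 values of 8.17 and 7.64 on the -GFs arrays and 11.31, 12.25 and 10.87 on the FGF2 arrays. The FGF2 arrays all lay above the -GFs arrays, at a change of 3.58 ± 0.40 (SE, adjusted p = 0.00718). ASZ1, a mitochondrial protein of the piRNA pathway, read 6.29 and 5.92 on the -GFs arrays and 9.48, 11.29 and 9.10 on the FGF2 arrays. It was undetected on both -GFs arrays, so that the rise is given as at least 10.7-fold (adjusted p = 0.0175). RNF17, a tudor-domain protein of the male germline, read 6.51 and 7.35 on the -GFs arrays and 10.28, 10.002 and 9.49 on the FGF2 arrays. Both groups were again apart, although 1 of the 2 -GFs arrays detected the probe, and the change was 2.99 ± 0.44 (SE, adjusted p = 0.0133).

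The other called members ranged over a wide span of levels. TAF7L, a germ-cell variant of a TFIID subunit whose promoter is shown above, changed by 2.99 ± 0.35 (SE, adjusted p = 0.00791), and FKBP6, a chaperone of piRNA loading, by 2.74 ± 0.39 (SE, adjusted p = 0.0119). PIWIL2, a piRNA-binding Argonaute undetected on both -GFs arrays, rose at least 3.66-fold. The remaining called members, listed to complete the group, were TEX19.1 at 2.44, TCFAP2C (Tfap2c, a transcription factor of germ-cell specification) at 2.25, TUBA3A at 2.03, the receptor KIT at 1.84, the helicase DDX4 at 1.12 and MOV10L1, a piRNA helicase undetected on both -GFs arrays, at least 1.49-fold higher. TAF7L, FKBP6 and DDX4 were detected on 1 of the 2 -GFs arrays, so that their -GFs values lay near background. Near-identical tubulin genes may share the TUBA3A probe. The call of 8 of the 12 held without any 1 array, and it was lost for TUBA3A (0.131) and KIT (0.134) without -GFs replicate 1, for MOV10L1 (0.19) without either -GFs array, and for DDX4 (0.372) without 5 of the 7 arrays (each of -GFs replicate 1, -GFs replicate 2, FGF2 replicate 1, FGF2 replicate 2 and FGF2 replicate 3). STRA8, a gene of meiotic entry that responds to retinoic acid and belongs to another list, read 5.59 and 7.70 on the -GFs arrays and 9.46, 8.99 and 9.03 on the FGF2 arrays. Its -GFs arrays were far apart, 1 of them undetected, and both below FGF2, with a change of 2.51 ± 0.56 (SE, adjusted p = 0.0478), and the call was lost for STRA8 (0.121) without -GFs replicate 1, FGF2 replicate 1 or FGF2 replicate 2.

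Among the 15 largest rises outside the pluripotency list, 10 carried clone or locus names with no current symbol in the RefSeq table, and the named ones included ZSCAN4C, TCSTV1 and TMEM92. ZSCAN4C and TCSTV1 belong to gene families with a burst of expression in the 2-cell embryo and in a fraction of ES cells. ZSCAN4C read 8.64 and 9.09 on the -GFs arrays and 12.26, 13.01 and 12.58 on the FGF2 arrays. Every FGF2 array lay above both -GFs arrays, at a change of 3.75 ± 0.29 (SE, adjusted p = 0.00451). TCSTV1 read 6.55 and 6.46 on the -GFs arrays and 9.76, 11.32 and 10.28 on the FGF2 arrays, a change of 3.95 ± 0.46 (SE, adjusted p = 0.00791), with 1 of the 2 -GFs arrays detecting the probe. TCSTV3, a relative of TCSTV1, and GM428, both chosen after their values were seen, changed by 2.73 and 3.29, with the call lost for TCSTV3 (0.148) without either -GFs array. The probes may not tell near-identical copies of the Zscan4 and Tcstv families apart. With BMP4, measured against the same -GFs arrays, 2.28% of all genes were called higher and 1.47% lower, and 5 germline members higher, with a germline median of 1.13. The changes there were 4.02 for ZSCAN4C (adjusted p = 0.00463) and 4.53 for TCSTV1 (0.0126).

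LAPTM5, a lysosomal protein best known from blood cells, read 7.67 and 8.04 on the -GFs arrays and 11.57, 12.59 and 11.75 on the FGF2 arrays, a change of 4.11 ± 0.59 (SE, adjusted p = 0.012). Of 29 blood and macrophage genes 23 were not tested for lack of detection, PTPRC, CSF1R and TYROBP among them, and LAPTM5 was the 1 called among the 4 members. The largest of the 15 rises was that of the locus LOC100047200, 4.16 ± 0.46 (SE, adjusted p = 0.00676), with means of 7.20 in -GFs and 11.37 in FGF2 co-cultures. It was detected on all 9 PA6 arrays, and PA6 alone without growth factor had a mean of 9.88, above that of the -GFs co-cultures. LAPTM5, ZSCAN4C and TCSTV1 were detected on 0 of 9 PA6 arrays.

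**Figure D2:**
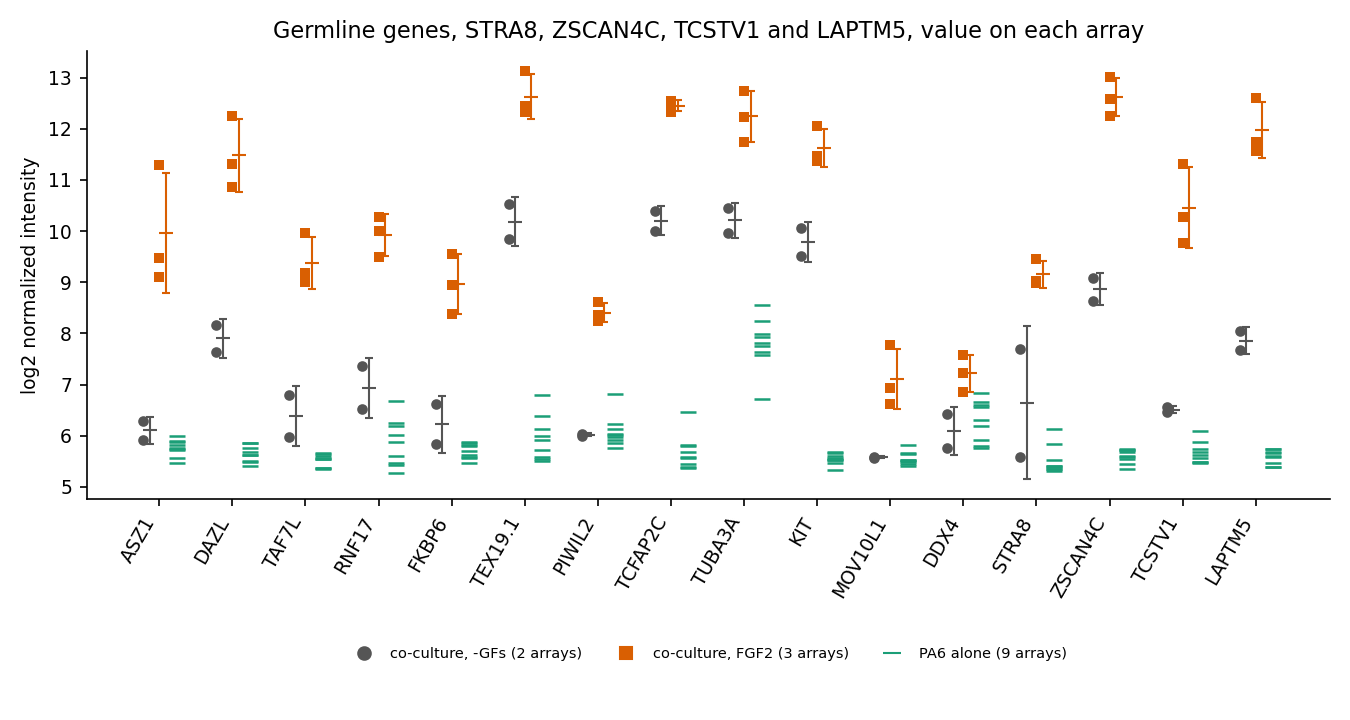
Log2 normalized intensity (vertical axis) of 12 germline genes, STRA8, ZSCAN4C, TCSTV1 and LAPTM5 on each array of the -GFs (grey) and FGF2 (orange) co-cultures, with mean and SD, and of all 9 PA6 arrays of any treatment (green dashes). In each of the 16 genes the FGF2 arrays lay above the -GFs arrays.

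Of 21 epithelial junction members 8 were called higher and 0 lower, with a median of 0.74, and 5 of the 14 detected on all 5 arrays were among them. With BMP4, against the same -GFs arrays, 9 were called higher and the median was 1.42. CDH1, the E-cadherin of adherens junctions, read 9.66 and 8.63 on the -GFs arrays and 11.71, 11.63 and 11.21 on the FGF2 arrays. Its change was 2.37 ± 0.37 (SE, adjusted p = 0.0169), and a second probe stood at 0.78. The groups did not overlap. The desmosomal cadherin DSG2 changed by 2.29 ± 0.33 (SE, adjusted p = 0.0125) and the tight junction protein CLDN4 by 1.93 ± 0.27 (SE, adjusted p = 0.0111).

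Lower in size were the changes of the membrane protease ST14, detected on 1 of the 2 -GFs arrays, at 1.67, its inhibitor SPINT1 at 1.38, and PKP3 of desmosomes and the P-cadherin CDH3, both undetected on the -GFs arrays and at least 1.88-fold and 2.03-fold higher. These 4 lost the call when 1 array was left out, for ST14 (0.115) without -GFs replicate 1, for SPINT1 (0.276) without -GFs replicate 2, FGF2 replicate 1 or FGF2 replicate 2, for PKP3 (0.16) without -GFs replicate 2, and for CDH3 (0.206) without either -GFs array. Probes disagreed for CDH3, whose others stood at -0.56 and -1.80 and were mostly undetected, so that its direction turned with the mean of its probes (-0.32), and for DSG2, whose second probe, undetected on both -GFs arrays, stood at 0.19. Mesenchymal genes had 16 members, 0 higher and 1 lower, ZEB2, a repressor of CDH1, at -1.16 ± 0.27 (SE, adjusted p = 0.0498), with the call lost for ZEB2 (0.22) without -GFs replicate 1, -GFs replicate 2 or FGF2 replicate 2. Of 16 basement membrane members 2 were called higher, the laminin chain LAMA3, undetected on both -GFs arrays and up at least 2.2-fold (adjusted p = 0.00476), and NID2 at 1.43 ± 0.19 (SE, adjusted p = 0.0105). The interstitial collagens and other stromal matrix genes had 26 members, 0 called, and a median of 0.05; scaling arrays by their medians gave 2 lower and a median of -0.18.

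The metabolic lists held few calls. Of 23 members for glycolysis and glucose uptake the 1 called was PFKP, the platelet form of phosphofructokinase, at 9.55 and 9.59 on the -GFs arrays and 12.05, 12.76 and 11.53 on the FGF2 arrays. The FGF2 arrays were all higher, by 2.54 ± 0.45 (SE, adjusted p = 0.0229), and the call was lost for PFKP (0.127) without either -GFs array. TDH, the threonine dehydrogenase on which mouse ES cells depend, read 9.72 and 9.50 on the -GFs arrays and 11.63, 11.68 and 11.49 on the FGF2 arrays, a change of 1.98 ± 0.31 (SE, adjusted p = 0.0159) that held without any 1 array. TRIB3, a pseudokinase of the amino acid stress response, was the other of 2 called among 20 members for serine, glycine and one-carbon metabolism, at 1.12 ± 0.29 (SE, adjusted p = 0.0711), with the call lost for TRIB3 (0.242) without 5 of the 7 arrays (each of -GFs replicate 1, -GFs replicate 2, FGF2 replicate 1, FGF2 replicate 2 and FGF2 replicate 3). In oxidative phosphorylation 1 of 22 members was called, the muscle isoform COX7A1 at 1.68 ± 0.45 (SE, adjusted p = 0.0796), with the call lost for COX7A1 (0.268) without 6 of the 7 arrays (each of -GFs replicate 1, -GFs replicate 2, FGF2 replicate 2, FGF2 replicate 3, BMP4 replicate 1 and BMP4 replicate 2).

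Transporters of lipids and solutes had 15 members, 5 called higher and 0 lower, with a median of 0.95. AQP3, a channel for water and glycerol, read 6.88 and 6.91 on the -GFs arrays and 8.73, 11.25 and 9.84 on the FGF2 arrays. The FGF2 arrays differed widely among themselves, and the change was 3.05 ± 0.72 (SE, adjusted p = 0.0561). SLC27A2, which carries and activates long-chain fatty acids, changed by 2.27 ± 0.40 (SE, adjusted p = 0.0228), the drug efflux pump ABCB1B by 1.78, the sodium pump subunit ATP1B1 by 1.58 and the nucleoside carrier SLC29A1 by 1.08. None of the 5 calls held in all 7 runs, and they were lost for AQP3 (0.211) without -GFs replicate 1, -GFs replicate 2 or FGF2 replicate 3, for SLC27A2 (0.116) without -GFs replicate 2, for ABCB1B (0.115) without -GFs replicate 1, for ATP1B1 (0.171) without either -GFs array, and for SLC29A1 (0.184) without -GFs replicate 1, -GFs replicate 2 or FGF2 replicate 2. Proliferation genes gave no call, with 0 of 26 members for DNA replication (median -0.09) and 0 of 24 for mitosis (0.13), whereas 1 of 20 members was called for p53 and cell cycle arrest, PMAIP1, a proapoptotic BCL2 relative, at 1.27. That call was lost for PMAIP1 (0.175) without -GFs replicate 1, -GFs replicate 2 or FGF2 replicate 2.

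Chromatin regulators had 22 members, all detected on all 5 arrays, with 5 called higher, 0 lower and a median of 0.50. DNMT3L, the cofactor of de novo DNA methylation, read 9.86 and 9.74 on the -GFs arrays and 11.94, 12.62 and 10.998 on the FGF2 arrays. The groups were apart, with a change of 2.05 ± 0.44 (SE, adjusted p = 0.0405), and a second probe changed by 2.16. The Polycomb protein CBX7 changed by 1.73 ± 0.25 (SE, adjusted p = 0.012), MYBL2, a cell cycle transcription factor, by 1.91, and CXXC6, the target name of the methylcytosine oxidase Tet1, by 1.54. UTF1, the fifth, is also a pluripotency gene. CBX7 kept the call without any 1 array, while it was lost for DNMT3L (0.164), MYBL2 (0.126) and CXXC6 (0.172) without either -GFs array. Imprinted genes had 16 members with 3 called higher, PHLDA2 at 2.001, SLC22A18, undetected on both -GFs arrays, at least 3.04-fold, and H19 at 1.51, and their median was -0.19. All 3 calls were lost for PHLDA2 (0.16), SLC22A18 (0.154) and H19 (0.181) without either -GFs array.

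Genes of the FGF pathway were called in both directions. FGF4, the ligand that ES cells make themselves, read 6.11 and 6.63 on the -GFs arrays and 8.72, 8.87 and 8.70 on the FGF2 arrays. It was the higher on all FGF2 arrays, by 2.39 ± 0.28 (SE, adjusted p = 0.00771), with 1 of the 2 -GFs arrays detecting it. FGF17, a ligand of the midbrain and hindbrain border also detected on 1 of the 2 -GFs arrays, changed by 1.69 ± 0.47 (SE, adjusted p = 0.0845), with the call lost for FGF17 (0.278) without -GFs replicate 1, -GFs replicate 2, FGF2 replicate 1 or FGF2 replicate 3. These were the 2 called of 8 ligand members. Both had passed only through the FGF2 arrays and had to lie higher there. None of the 4 ligand members detected on all 5 arrays was called (median -0.63).

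FGFR3, a receptor of neural progenitors, read 8.50 and 8.54 on the -GFs arrays and 6.06, 6.24 and 6.96 on the FGF2 arrays. It fell by 2.10 ± 0.33 (SE, adjusted p = 0.0164), and 1 of the 3 FGF2 arrays detected it. FGFR2, read at 12.65 and 12.38 on the -GFs arrays and 11.21, 10.50 and 11.23 on the FGF2 arrays, fell by 1.54 ± 0.27 (SE, adjusted p = 0.0223) and had no overlap between the groups. KLB, a co-receptor for endocrine FGFs undetected on both -GFs arrays, was called higher, at least 1.07-fold, which completed 3 called of 8 receptor members. Among the 5 receptor members detected on all 5 arrays FGFR2 alone was called. The 3 calls were lost for FGFR3 (0.104) and FGFR2 (0.136) without -GFs replicate 1, and for KLB (0.173) without -GFs replicate 1, -GFs replicate 2 or FGF2 replicate 2. In the BMP4 co-cultures, which share the -GFs arrays, the change was -1.74 for FGFR3 and 0.17 for FGFR2.

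The feedback and target genes of ERK had 14 members with 2 called higher, 0 lower and a median of 0.35. ETV5, an ETS factor downstream of FGF, read 9.54 and 9.61 on the -GFs arrays and 11.84, 11.47 and 10.80 on the FGF2 arrays, with a change of 1.80 ± 0.39 (SE, adjusted p = 0.0428), and the immediate early gene FOS changed by 1.05 ± 0.23 (SE, adjusted p = 0.0469). Both calls were lost in some runs, for ETV5 (0.185) without -GFs replicate 1, -GFs replicate 2 or FGF2 replicate 2, and for FOS (0.216) without -GFs replicate 2, FGF2 replicate 2 or FGF2 replicate 3. The inhibitor SPRY4 stood at 0.36 ± 0.26 (SE, adjusted p = 0.483) and the ERK phosphatase DUSP6, chosen after its values were seen, at 0.49 ± 0.25 (SE, adjusted p = 0.304), neither called.

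NODAL, a TGFB family ligand of the epiblast, read 9.86 and 9.76 on the -GFs arrays and 12.12, 12.35 and 11.67 on the FGF2 arrays. The change was 2.23 ± 0.36 (SE, adjusted p = 0.0175), with both groups apart. Its co-receptor TDGF1, a pluripotency gene too, changed by 2.89 and TGIF1, a repressor of SMAD signals, by 1.35 ± 0.23 (SE, adjusted p = 0.0205), whereas FST, which binds activins, fell, at -1.11 ± 0.24 (SE, adjusted p = 0.0422). These were the 4 called of 23 members for TGFB, NODAL and LEFTY, and their calls were lost for NODAL (0.105) without -GFs replicate 1, for TGIF1 (0.105) without -GFs replicate 2, for TDGF1 (0.146) without either -GFs array, and for FST (0.175) without -GFs replicate 1, -GFs replicate 2 or FGF2 replicate 2.

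Of 17 BMP members 2 were called higher and 2 lower. The ligand BMP4 itself read 8.47 and 9.53 on the -GFs arrays and 10.08, 10.82 and 10.89 on the FGF2 arrays, a change of 1.60 ± 0.41 (SE, adjusted p = 0.0675) with no overlap, and GDF3, a ligand of ES cells, changed by 2.10 ± 0.24 (SE, adjusted p = 0.00718). The receptor BMPR1B was lower, at -1.62 ± 0.28 (SE, adjusted p = 0.0213), and the other lower member was FST. GDF3 kept the call without any 1 array, and it was lost for BMP4 (0.285) without -GFs replicate 1, FGF2 replicate 2 or FGF2 replicate 3, and for BMPR1B (0.109) without either -GFs array. In the BMP4-treated co-cultures, against the same -GFs arrays, BMP4 changed by 1.74 (adjusted p = 0.115) and was not called.

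**Figure D3:**
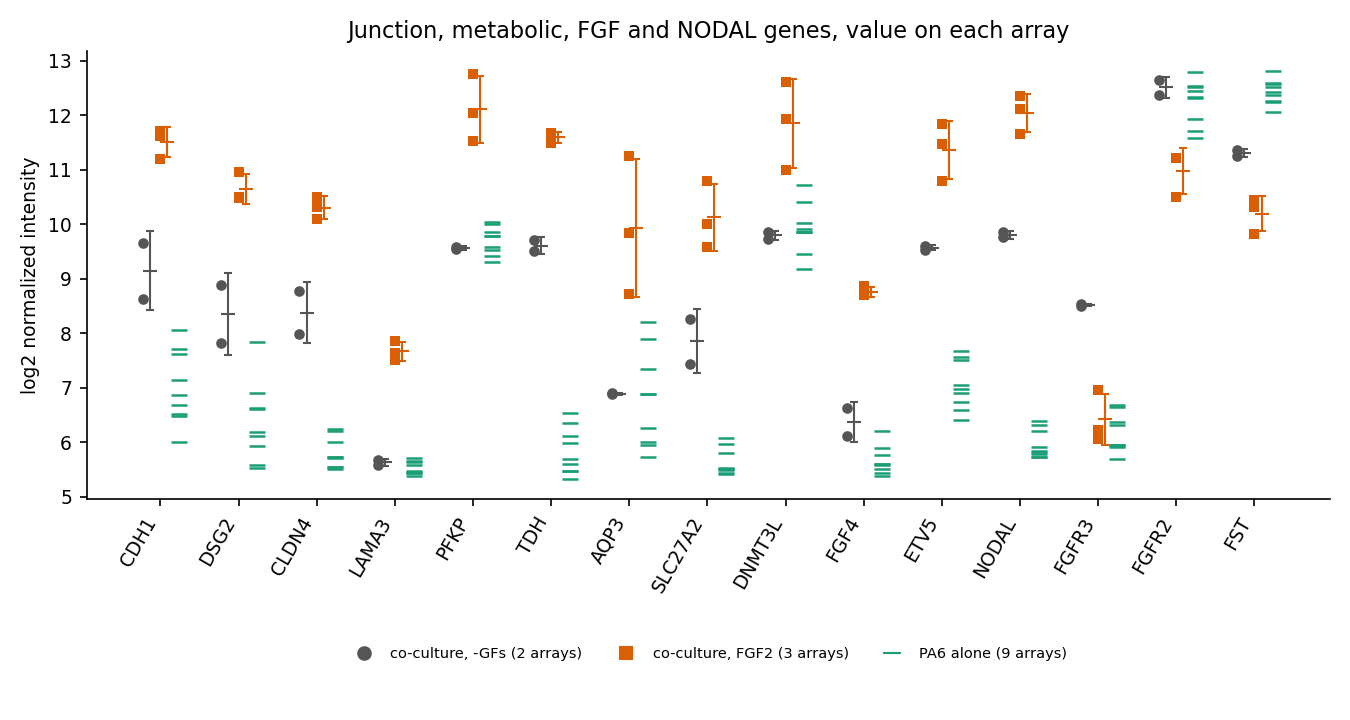
Log2 normalized intensity (vertical axis) of 15 junction, metabolic, chromatin, FGF and NODAL genes on each array of the -GFs (grey) and FGF2 (orange) co-cultures, with mean and SD, and of all 9 PA6 arrays of any treatment (green dashes). FGFR3, FGFR2 and FST lay lower on the FGF2 arrays, and the other 12 lay higher.

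Of 17 HOX members, the homeobox genes that set position along the body axis, 5 were called lower and 0 higher, with a median of -0.44. The 5 belong to paralogue groups 1 to 4, which are used in the hindbrain and anterior trunk. HOXD3 read 9.72 and 9.27 on the -GFs arrays and 6.57, 6.61 and 6.81 on the FGF2 arrays. The change was -2.84 ± 0.43 (SE, adjusted p = 0.0148), and HOXD3, HOXD4 and HOXB1 were each detected on 2 of the 3 FGF2 arrays. HOXD4 read 9.61 and 9.83 on the -GFs arrays and 6.66, 6.30 and 7.997 on the FGF2 arrays, a change of -2.74 ± 0.64 (SE, adjusted p = 0.0541). HOXB1 read 10.88 and 9.08 on the -GFs arrays and 8.64, 6.42 and 6.36 on the FGF2 arrays. The spread within each group was wide for HOXB1, and the change was -2.84 ± 0.80 (SE, adjusted p = 0.0894). HOXB2 read 12.997 and 12.74 on the -GFs arrays and 11.38, 10.77 and 11.07 on the FGF2 arrays, and HOXA2 read 12.47 and 12.26 on the -GFs arrays and 10.85, 10.77 and 10.70 on the FGF2 arrays. Both lay lower on all FGF2 arrays and fell, HOXB2 by 1.79 ± 0.22 (SE, adjusted p = 0.00871) and HOXA2 by 1.59 ± 0.19 (SE, adjusted p = 0.00794). HOXB2, HOXA2 and HOXD4 were detected on all 9 PA6 arrays, with means of 10.81, 11.16 and 7.78 in PA6 without growth factor. HOXB1 and HOXD3 were detected on 0 of the 9.

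HOXB2 and HOXA2 kept the call without any 1 array. The call was lost for HOXD3 (0.112) without -GFs replicate 1, for HOXD4 (0.203) without -GFs replicate 1, -GFs replicate 2, FGF2 replicate 1 or FGF2 replicate 2, and for HOXB1 (0.35) without 6 of the 7 arrays (each of -GFs replicate 1, -GFs replicate 2, FGF2 replicate 2, FGF2 replicate 3, BMP4 replicate 1 and BMP4 replicate 2). Because 4 members had passed only through the -GFs arrays, the count among the 11 detected on all 5 arrays, 2 lower with a median of -0.11, is given as well. In the BMP4 co-cultures against the same -GFs arrays the change was 0.20 for HOXD3, 0.50 for HOXD4, -1.53 for HOXB1, -1.06 for HOXB2 and -1.30 for HOXA2, of which HOXB2 and HOXA2 were called. Over the whole list BMP4 gave 3 called higher, 2 lower and a median of 0.56.

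Retinoic acid genes, to which the HOX clusters respond, had 12 members with 2 called lower and 1 higher. The last was STRA8, which had passed only through the FGF2 arrays. CRABP2, which carries retinoic acid to its nuclear receptor, read 13.61 and 13.47 on the -GFs arrays and 11.33, 10.74 and 12.11 on the FGF2 arrays. The fall was present on all FGF2 arrays, at -2.15 ± 0.40 (SE, adjusted p = 0.0269). CRABP1, the other cellular binding protein, changed by -1.71 ± 0.42 (SE, adjusted p = 0.0599). Both calls were lost for CRABP2 (0.143) and CRABP1 (0.261) without either -GFs array.

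Neural progenitor genes had 18 members, 5 called lower and 0 higher, and a median of -0.70. Of these members 13 were detected on all 5 arrays, with 3 called lower and a median of -0.37, and 5 had passed only through the -GFs arrays. MSI1H, the target name of the RNA-binding protein Msi1 of neural stem cells, read 9.01 and 8.75 on the -GFs arrays and 6.76, 6.20 and 7.04 on the FGF2 arrays. It was lower on all FGF2 arrays, at -2.22 ± 0.27 (SE, adjusted p = 0.00834). IRX3, a homeobox gene of the neural tube, read 13.72 and 13.39 on the -GFs arrays and 12.11, 11.95 and 11.92 on the FGF2 arrays. Its change was -1.56 ± 0.18 (SE, adjusted p = 0.0075), and the intermediate filament NES changed by -1.29 ± 0.23 (SE, adjusted p = 0.0248). DBX1, a homeobox gene of interneuron progenitors, stood at -1.11, and HES3, a Notch target undetected on all FGF2 arrays, was at least 2.41-fold lower. MSI1H and IRX3 kept the call without any 1 array, and it was lost for NES (0.125) without -GFs replicate 2, for HES3 (0.166) without -GFs replicate 1, FGF2 replicate 1, FGF2 replicate 2 or FGF2 replicate 3, and for DBX1 (0.257) without -GFs replicate 1, -GFs replicate 2, FGF2 replicate 1 or FGF2 replicate 3.

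Neuronal differentiation genes had 33 members, 5 called lower and 0 higher, a median of -0.39 and 29 negative changes. Of these members 30 were detected on all 5 arrays, with 3 called lower and a median of -0.385. NEFM, a neurofilament, read 11.81 and 12.16 on the -GFs arrays and 10.45, 10.42 and 10.84 on the FGF2 arrays, a change of -1.41 ± 0.22 (SE, adjusted p = 0.0174). ONECUT2 changed by -2.12, the RNA-binding protein ELAVL3 by -1.10, and ST18 was also called. A second target name of Elavl3, detected on all 5 arrays, stood at -0.62 and was not called. NEFM kept the call without any 1 array, and it was lost for ONECUT2 (0.21) without -GFs replicate 1, -GFs replicate 2 or FGF2 replicate 1, and for ELAVL3 (0.217) without -GFs replicate 2, FGF2 replicate 1, FGF2 replicate 2 or FGF2 replicate 3. With BMP4, against the same -GFs arrays, 14 of the 33 were called lower and the median was -1.30, while for the 18 progenitor members 1 was called lower and the median was -0.82. The difference between both factors was not tested.

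Notch and proneural genes had 18 members, 2 called lower, 0 higher, and 17 negative changes (median -0.54). Both called genes were ligands, DLL1 at -1.26 ± 0.28 (SE, adjusted p = 0.0452) and DLL3, undetected on all FGF2 arrays and at least 1.45-fold lower. DLL3 had passed only through the -GFs arrays and had to lie lower with FGF2. Among the 16 members detected on all 5 arrays DLL1 alone was called. The calls were lost for DLL1 (0.202) without -GFs replicate 1, -GFs replicate 2, FGF2 replicate 2 or FGF2 replicate 3, and for DLL3 (0.322) without 5 of the 7 arrays (each of -GFs replicate 1, -GFs replicate 2, FGF2 replicate 1, FGF2 replicate 2 and FGF2 replicate 3). IRX5 was the 1 called of 15 members for head-to-hindbrain patterning, at -1.17, and SUFU, an inhibitor of hedgehog signals, the 1 called of 8 hedgehog members, at -1.41. A second SUFU probe stood at 0.08, and these calls were lost for IRX5 (0.128) without -GFs replicate 1, and for SUFU (0.144) without either -GFs array. GREB1, an oestrogen-responsive gene among the 15 largest falls, read 11.01 and 10.64 on the -GFs arrays and 8.92, 8.22 and 8.46 on the FGF2 arrays, a change of -2.29 ± 0.25 (SE, adjusted p = 0.00676) that held without any 1 array. The falls of that set not named elsewhere included ACOX3, a peroxisomal oxidase, at -2.20 and D1ERTD471E, the target name of Ildr2, at -2.44.

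WNT genes had 27 members, 7 called lower and 1 higher, with a median of -0.51. Among the 22 detected on all 5 arrays 5 were called lower and 1 higher, with a median of -0.46. Of the rest 3 had passed only through the -GFs arrays and 2 only through the FGF2 arrays. WNT3A, a ligand of the streak and dorsal neural tube, read 9.28 and 8.97 on the -GFs arrays and 7.57, 6.25 and 7.74 on the FGF2 arrays. The FGF2 arrays lay below both -GFs arrays, at -1.94 ± 0.47 (SE, adjusted p = 0.0585). WNT7B, a ligand of neural tissue, changed by -1.34 ± 0.28 (SE, adjusted p = 0.0388), the secreted antagonist FRZB by -1.65 and the receptor FZD3 by -1.55; FZD10, SFRP2 and FZD2 were the others called lower. FZD5 was the receptor called higher, at 1.26 ± 0.17 (SE, adjusted p = 0.011), and it alone of the 8 kept the call without any 1 array, but lost it with scaling by medians (1.03, adjusted p = 0.105). Of those with values here it was lost for WNT3A (0.238) and FRZB (0.208) without either -GFs array, for FZD3 (0.287) without -GFs replicate 1, -GFs replicate 2, FGF2 replicate 2 or FGF2 replicate 3, and for WNT7B (0.175) without -GFs replicate 2 or FGF2 replicate 2.

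**Figure D4:**
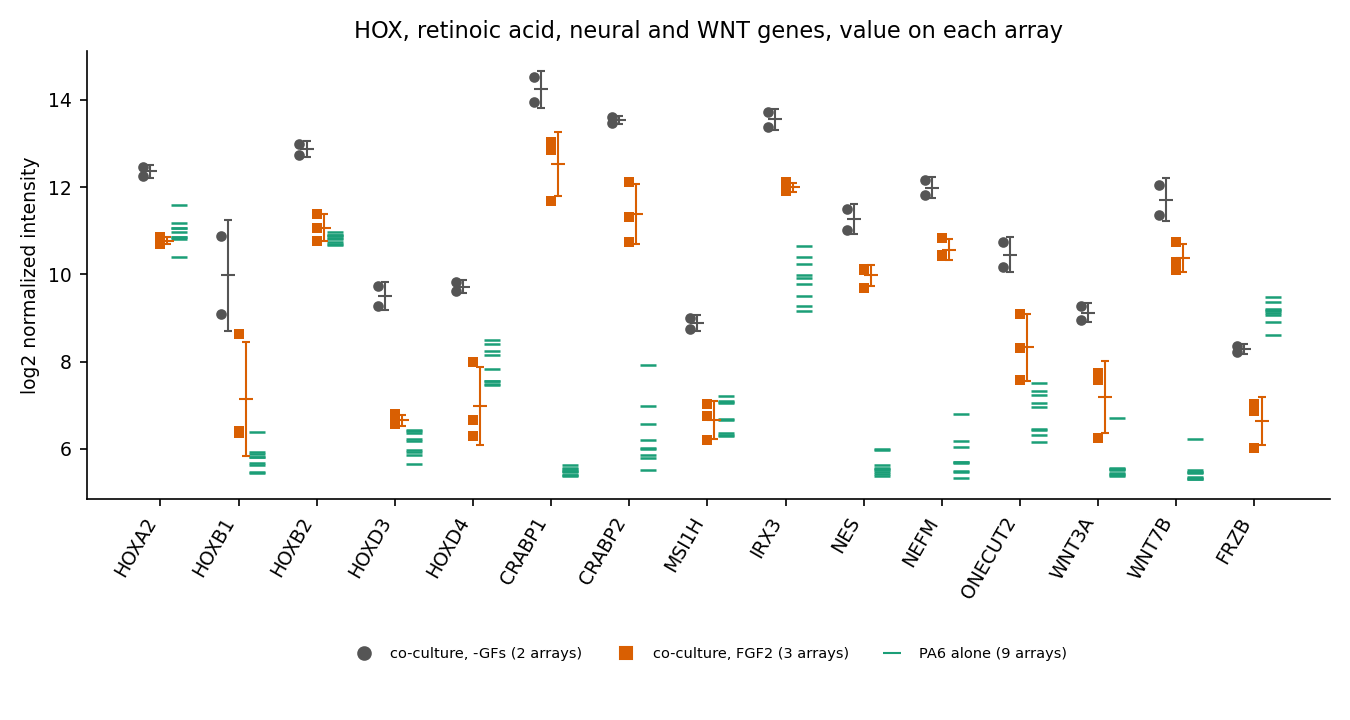
Log2 normalized intensity (vertical axis) of 15 HOX, retinoic acid, neural and WNT genes on each array of the -GFs (grey) and FGF2 (orange) co-cultures, with mean and SD, and of all 9 PA6 arrays of any treatment (green dashes). In all 15 the FGF2 arrays lay below the -GFs arrays.

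Germ layer genes gave few calls. Of 13 members for primitive streak and mesoderm 1 was called, TBX3, which is also a pluripotency gene, at 3.40, and 8 of 13 changes were negative. Of 10 endoderm members 3 were called higher and 1 lower. Among the 8 detected on all 5 arrays 1 was called higher and 1 lower, and the other 2 members had passed only through the FGF2 arrays. RHOX5, a homeobox gene of extraembryonic lineages, read 12.13 and 11.99 on the -GFs arrays and 14.42, 14.56 and 14.14 on the FGF2 arrays, a change of 2.31 ± 0.21 (SE, adjusted p = 0.00451) that held without any 1 array. The iron carrier TRF, undetected on both -GFs arrays, was at least 1.98-fold higher and AMN, detected on 1 of the 2 -GFs arrays, changed by 1.35, whereas the chemokine receptor CXCR4 changed by -1.34 ± 0.23 (SE, adjusted p = 0.0226). The other 3 calls were lost for TRF (0.15) and CXCR4 (0.136) without -GFs replicate 1, and for AMN (0.215) without -GFs replicate 1, FGF2 replicate 2 or FGF2 replicate 3.

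Of 12 endothelial members 2 were called in opposite directions. PECAM1, an adhesion molecule of endothelium and of ES cells, read 6.96 and 7.81 on the -GFs arrays and 10.49, 11.11 and 10.29 on the FGF2 arrays, a change of 3.24 ± 0.42 (SE, adjusted p = 0.0098). RAMP2, the co-receptor of adrenomedullin in vessels, changed by -1.56 ± 0.34 (SE, adjusted p = 0.0427), with the call lost for RAMP2 (0.212) without either -GFs array. Among 17 angiogenic ligand members 2 were called higher. ANGPTL4, a secreted lipase inhibitor, read 7.46 and 8.08 on the -GFs arrays and 9.98, 10.33 and 9.79 on the FGF2 arrays, a change of 2.26 ± 0.30 (SE, adjusted p = 0.0105), and VEGFC, the lymphatic growth factor, changed by 1.21 ± 0.16 (SE, adjusted p = 0.0105). Both kept the call without any 1 array, but VEGFC lost it with scaling by medians, at 0.98 (adjusted p = 0.135).

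PA6 cells alone served to ask which of these changes also occurred in the stroma. There 4 of 14829 genes (0.027%) were called, and 1536 had an unadjusted p under 0.05. That count was 0 without PA6 -GFs replicate 1 or 3 or BMP4 replicate 2 or 3, 2 without FGF2 replicate 3 and 17 without BMP4 replicate 1. The 1 gene called in both kinds of culture was SERPINA3N, a secreted protease inhibitor, which read 5.90, 6.47 and 5.52 without growth factor and 9.27, 8.60 and 8.54 with FGF2 in PA6. In co-cultures it read 6.12 and 7.90 on the -GFs arrays and 8.33, 9.72 and 9.49 on the FGF2 arrays, with no overlap and 1 of the 2 -GFs arrays detecting it, and changed by 2.17 ± 0.59 (SE, adjusted p = 0.081), a call lost for SERPINA3N (0.305) without 5 of the 7 arrays (each of -GFs replicate 1, FGF2 replicate 2, FGF2 replicate 3, BMP4 replicate 1 and BMP4 replicate 2). SPP1, the secreted phosphoprotein osteopontin, read 9.71, 10.08 and 8.80 without growth factor and 12.27, 12.44 and 11.97 with FGF2 in PA6, where it was not called (adjusted p = 0.127). In co-cultures SPP1 read 10.01 and 10.31 on the -GFs arrays and 13.02, 13.17 and 12.99 on the FGF2 arrays and changed by 2.90 ± 0.24 (SE, adjusted p = 0.00451). The effects in both kinds of culture differed by -0.67 ± 0.65 (SE) for SERPINA3N and 0.20 ± 0.56 for SPP1, neither past the threshold. These were the 2 called of 15 members for chemokines and inflammation. Other genes described with a call in co-cultures that moved in the same direction in PA6 included H19, DES and BMP4, by 1.39, 1.001 and 0.88, none called there. Their effects differed between both kinds of culture by 0.12 (adjusted p = 0.955), 0.36 (0.709) and 0.72 (0.383). FGFR2, detected on all 9 PA6 arrays, changed there by -0.64 ± 0.15 (SE, adjusted p = 0.219). Its effects differed by -0.89, not past the threshold. The BMP4 gene had a mean of 11.87 in PA6 without growth factor and of 8.999 in -GFs co-cultures.

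A test of the difference between the FGF2 effects in co-cultures and in PA6, at the same thresholds, called 7.9% of all genes, 4.92% with the higher effect in co-cultures and 2.98% with the lower. The higher made up 62.3% of these calls, and 75.2% after scaling by medians. Of the 744 members called higher 560 differed, and of the 348 called lower 218; the same co-culture arrays enter both tests. Of the higher members 43.7% were detected on 0 of the 9 PA6 arrays and of the lower ones 33%, against 10.7% of all members. Of 21 cholesterol synthesis members 0 were called in co-cultures (median -0.10) and 0 in PA6, where the median change was 0.95 and 19 of 21 changes were positive. The effects differed in 9 of the 21, all lower in co-cultures. MVD, a decarboxylase of the mevalonate pathway, read 8.10, 8.58 and 8.58 without growth factor and 10.71, 9.82 and 10.05 with FGF2 in PA6, and SC5D, a late sterol desaturase chosen like MVD after its values were seen, changed by 0.95 in PA6 and -0.70 in co-cultures. For MVD the changes were 1.78 in PA6 and -0.51 in co-cultures, a difference of -2.28 ± 0.49 (SE, adjusted p = 0.0143).

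**Figure D5:**
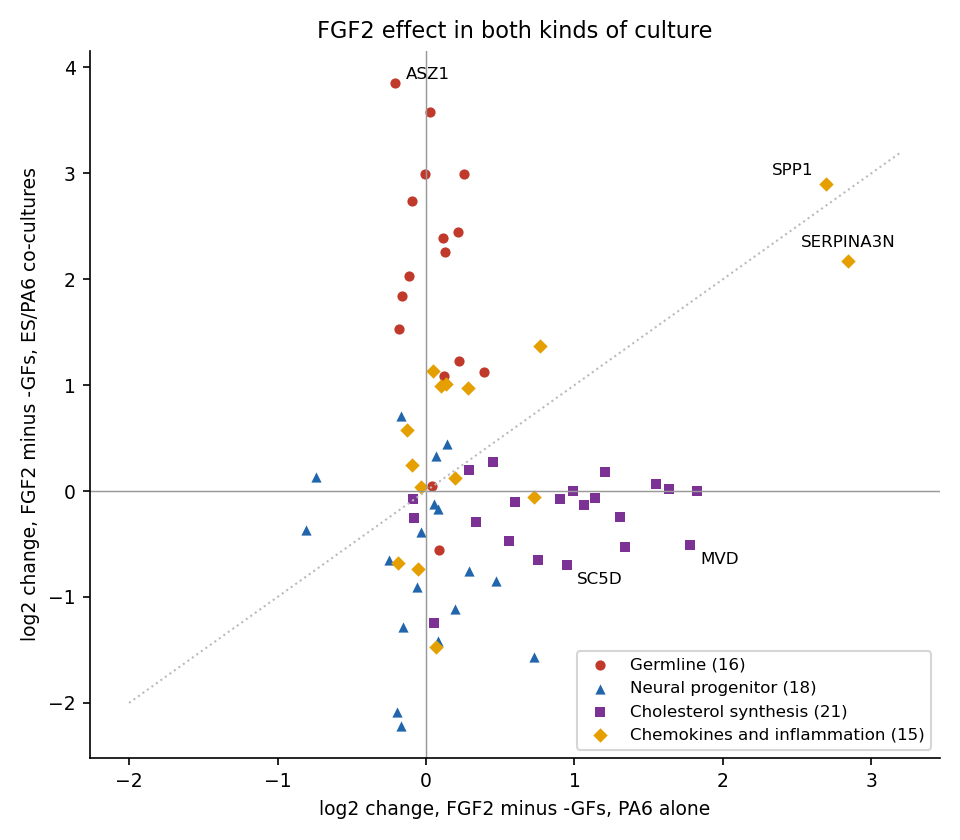
Log2 change with FGF2 in PA6 alone (horizontal axis) and in ES/PA6 co-cultures (vertical axis) of the members of 4 gene lists, 1 point per gene; the dotted line marks equal change. Germline genes spread upward at no more than 0.39 in PA6, cholesterol genes spread to the right up to 1.82, and SPP1 and SERPINA3N lay near the dotted line.

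The lists not described so far held few calls. Primed epiblast genes had 8 members with SALL2 called lower at -1.07, adipocyte genes 4 members with the glucose carrier SLC2A4 called lower at -1.16, and smooth muscle and contractile genes 16 members with DES at 1.36 and TAGLN2 at 1.28 called higher. These calls were lost for SALL2 (0.241) without -GFs replicate 1, FGF2 replicate 1 or FGF2 replicate 2, for SLC2A4 (0.136) without -GFs replicate 2, for TAGLN2 (0.175) without either -GFs array, and for DES (0.267) without 5 of the 7 arrays (each of -GFs replicate 2, FGF2 replicate 2, FGF2 replicate 3, BMP4 replicate 1 and BMP4 replicate 2). Interferon response genes had 0 called of 19 members and a median of 0.41, and ribosome biogenesis genes 0 of 21 and a median of 0.07.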

How the data were processed

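RNA from 16 cultures, 7 of ES/PA6 co-cultures and 9 of PA6 alone, was hybridised to one-colour Illumina MouseWG-6 v2.0 arrays. The authors deposited, for each array, the average signal intensity per probe without normalization and its detection p-value, exported by GenomeStudio 2011.01 (named in the submitters' processing notes); bead-level steps before that are not given in the sources used here. From these intensities, log2 values were computed with neqc of limma 3.58.1 in R 4.3.3 (normexp background correction by detection p, offset 16, quantile normalization over all 16 arrays). Brightness near background is compressed by the offset, so changes of dim genes are understated.

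A probe was kept when its detection p was under 0.05 on every array of at least 1 of the 6 groups, which left 20880 of 45281 probes, and each target name was represented by its brightest probe on average, giving 14829 genes. Of these, 12352 (83.3%) matched a current symbol in the RefSeq table; names are those of the array design. The number of arrays limits the precision.

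Linear models (lmFit, eBayes) used the 7 co-culture arrays for one comparison, the 9 PA6 arrays for another and all 16 for the difference of effects. P-values were adjusted by Benjamini-Hochberg over all genes, with thresholds of 0.1 and a log2 change of 1. The labels describe each biological replicate as providing 1 well of every treatment. Where a group was undetected, a fold change is a lower bound, the bright group's mean over the dim group's mean of, per array, the higher of its own signal and the lowest detected signal. The steps were tested on simulated data. Tables and plots used Python 3.11.15, pandas 2.3.3 and matplotlib 3.10.9.

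Genes were named by a rule: the 15 largest rises and 15 largest falls among called genes without overlap, detected throughout the higher group and outside the pluripotency list, Hes5 and Tek; of each list, the 3 genes written first and up to 4 called members in each direction; and cell type markers. From these a selection is printed, and genes outside the rule are marked. Some called genes are not reported here. Members and lists were chosen with earlier results of these data known. Other fits, normalizations, filters and arrays left out are described at the end.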

Additional observations from a re-analysis of the deposited data

Results flagged for a closer look

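Of the 106 called genes described with values, 79 had an FGF2 effect in co-cultures that differed from that in PA6 alone at the thresholds used above. The 34 whose difference had an adjusted p under 0.01 (limma, all 16 arrays) are given here as co-culture effect minus PA6 effect on the log2 scale. The effect was lower in co-cultures for ONECUT2 at -2.75, HOXD3 at -2.67, GREB1 at -2.65, IRX3 at -2.29, ACOX3 at -2.21, RAMP2 at -1.96 and HOXB2 at -1.84. It was higher for VEGFC at 1.28, FZD5 at 1.31, CBX7 at 1.57, LAMA3 at 1.98, CLDN4 at 2.00, KIT at 2.00, TCFAP2C at 2.13, ABCB1B at 2.17, NODAL at 2.19, FGF4 at 2.21, PIWIL2 at 2.28, SLC27A2 at 2.34 and FKBP6 at 2.83. Larger positive differences were found for TAF7L at 3.00, PECAM1 at 3.25, GM428 at 3.44, TBX3 at 3.55, DAZL at 3.55, BC080695 at 3.67, TCSTV1 at 3.86, ZSCAN4C at 3.98, TMEM92 at 4.02, ASZ1 at 4.06, LOC100047200 at 4.08, LAPTM5 at 4.12, LOC100045198 at 4.21 and LOC212386 at 4.24. Of these 34 genes 24 were undetected on every PA6 array. Groups held 2 or 3 arrays, too few to ask whether 1 array stood apart from its group.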

How the results depend on the processing

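The 1100 calls in co-cultures became 663 without background correction, 719 among probes detected on all 5 arrays, 1675 with no minimum fold change and 395 to 1069 with 1 array left out, the lowest without -GFs replicate 1 and 707 without -GFs replicate 2. In those runs 1 -GFs array was left and was assumed to vary like the other groups. Of the list members 101 were called, and 45 to 103 with 1 array left out. Of the genes described 106 were called, and 51 to 102 with 1 array left out. The 4 calls in PA6 became 26 with scaling by medians and 0 to 17 with 1 array left out. The 1172 calls for the difference became 741 with scaling by medians and 939 to 1317 without 1 of the 5 -GFs or FGF2 co-culture arrays; PA6 arrays were not left out of that test. The change of CDH3 turned to -0.32 with the mean of its probes, whose probes disagree.

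With the replicate number as a block, 988 genes were called in co-cultures, 782 of the 1092 called members among them, and 23 in PA6. Of the genes described, 80 of 106 kept the call. It was lost for DDX4, STRA8, TCSTV3, PKP3, CDH3, ZEB2, AQP3, ATP1B1, TRIB3, COX7A1, H19, FGF17 and FOS. The call was also lost for BMP4, SERPINA3N, AMN, RAMP2, WNT3A, FZD3, HES3, DBX1, DLL1, DLL3, SALL2, DES and TAGLN2. Deviations of same-numbered co-culture arrays correlated at 0.28 for number 1 and 0.07 for number 2, which did not establish a pairing. Adjacent columns of the table form runs, which no label names as a batch or a replicate, and arrays of the same run deviated together in all 5 pairs (0.28, 0.25, 0.20, 0.16 and 0.10). Whether a run is a biological replicate was not tested. A block for the run, chosen after seeing the data, gave 1054 calls, 906 of the called members among them, and 98 of the 106 genes described. The 8 that lost the call were ZEB2 (0.0388), FGF17 (0.126), KLB (0.0524), FRZB (0.106), DLL1 (0.1), SALL2 (0.0927), TRIB3 (0.125) and DES (0.139) (adjusted p in brackets, those under 0.1 having fallen to a log2 change of 1 or less or, for DLL1, lying at the threshold). Scaling by medians ended the call of FOS (0.185), FZD5 (0.105), SLC29A1 (0.205), VEGFC (0.135), TRIB3 (0.203) and TAGLN2 (0.105). Among 1092 called members no change turned sign in any fit but those with no detection filter (1) and with the mean of probes (2).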
